A study of Homo sapiens with 9 samples.

Results

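hsa-miR-192-5p, hsa-miR-194-5p and hsa-miR-215-5p (written without the species prefix from here on), the guide strands of a pair of p53-responsive miRNA clusters, were followed through an RNA affinity purification on the PD-L1 3'UTR. They were chosen by name, and all 3 were present among the 2652 mature miRNA names of the count table, in 4 of its 2883 locus rows, since miR-194-5p has a copy in each cluster. Small RNA came from ES-2, an ovarian cancer-derived cell line that the study classes as resembling high-grade serous carcinoma, and the labels name no genetic change or drug treatment. In miTRAP, a bait RNA is coupled by its MS2 loops to a resin-bound protein, mixed with cell lysate and recovered together with the RNA that stayed on it. The 9 libraries formed 3 groups of 3 replicates: the lysate input, RNA retained by a control bait with MS2 loops (MS2 control), and RNA retained by a bait that carried the 3'UTR (PD-L1 3'UTR). Bait sequence and bait amount differed together between the trapped groups, so their parts cannot be told apart.

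A miRNA guides Argonaute proteins to mRNAs through its seed, the bases near its 5' end that pair with sites mostly in 3'UTRs. miR-192 and miR-215 are close homologues with a common seed, each encoded next to a copy of miR-194, and all are best known from intestine, liver and kidney, where they are abundant. p53 raises transcription of both clusters, and MDM2, the ubiquitin ligase that degrades p53, is among the targets described for these miRNAs.

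The mature sequences show which members share a seed and how little separates miR-192-5p from miR-215-5p. They are given 5' to 3' from RefSeq (GRCh38.p14), with the seed, bases 2 to 8, in capitals. All 3 names matched an entry there.

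miR-192-5p (MIR192, chr11:64891203-64891223, reverse strand): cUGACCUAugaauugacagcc

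miR-215-5p (MIR215, chr1:220117916-220117936, reverse strand): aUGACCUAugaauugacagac

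miR-194-5p (MIR194-2, chr11:64891404-64891425, and MIR194-1, chr1:220118206-220118227, both reverse strand): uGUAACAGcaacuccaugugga

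Counted from 1 at the 5' end of miR-192-5p, miR-215-5p differs by C1A and C20A, and the 18 bases from position 2 to 19 are identical. A read that lacks the end bases cannot be told apart between them, and the split of counts between miR-192-5p and miR-215-5p is uncertain to that extent. The seed UGACCUA belonged to these 2 names only among 2370 mature names of the RefSeq table, and the seed GUAACAG to miR-194-5p alone. The hairpins MIR192 and MIR194-2 lie 108 bases apart on chromosome 11, and MIR215 and MIR194-1 are likewise neighbours on chromosome 1. By the GENCODE annotation, MIR192 overlaps an exon of the noncoding host transcript MIR194-2HG on the same strand, whereas MIR215 and MIR194-1 lie within introns of IARS2, which is transcribed from the opposite strand.

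Libraries held from 672824 to 5983577 miRNA counts, with the trapped libraries shallower than the input. PD-L1 3'UTR replicate 1 stood apart from its group. In it, 32 of the 408 miRNAs that passed the filter on low counts were more than 2-fold above both other replicates, against 3 to 18 in each of the other 8 libraries. Of the 19 listed markers of other cell types and tissues, 16 had their highest level of all 9 libraries in it, against 13.0% of all miRNAs tested. Only 9 of the 19 passed the filter, so this count and this share cover unlike sets of miRNAs. The list was chosen with earlier results of these data known, so the count describes this library and is not a separate test. Among the 16 markers, the liver miRNA miR-122-5p held 227 counts, against 0 and 1 in PD-L1 3'UTR replicates 2 and 3. Its MS2 control libraries held 53 to 127 counts. The summed marker level was 4380 CPM (counts relative to the library total after scaling by TMM factors) in PD-L1 3'UTR replicate 1, 809 and 634 in replicates 2 and 3, 504 to 664 in the MS2 control and 261 to 336 in the input. The 9 markers that passed the filter were miR-1-3p of muscle, miR-451a of erythroid cells, miR-122-5p of liver, miR-126-3p of endothelium, miR-142-3p and miR-142-5p of white blood cells, miR-200b-3p and miR-200c-3p of epithelium and miR-375-3p of endocrine cells. Over the MS2 control, 3 of these 9 were called higher with the PD-L1 3'UTR by edgeR (2 with library totals). Of all miRNAs tested, 31.4% were called higher in that comparison (29.9% with library totals). Without PD-L1 3'UTR replicate 1, when 10 markers passed the filter, 1 was higher and 1 lower, against 25.2% and 28.6% of all miRNAs. miR-429 was at 0 in every library and miR-144-3p was at 0 in PD-L1 3'UTR replicate 1. Fold changes are therefore given with and without this library. The study describes the replicates as biological, and p-values measure the spread between these samples.

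miR-192-5p was the most abundant of the 3 miRNAs in every library. Each read counts 1 small RNA, and the mature forms have 21 or 22 bases, so CPM were compared between them without division by length. How evenly each sequence was recovered in the libraries was not measured, so abundance between members means counts here. In the input, miR-192-5p held 2422, 2023 and 3119 counts in replicates 1, 2 and 3, or 636, 681 and 702 CPM. The mean was 673 ± 33.4 CPM (SD, n = 3). The MS2 control libraries held 504, 746 and 780.0 CPM (677 ± 150.3). PD-L1 3'UTR replicates retained 718, 358 and 402 CPM (493 ± 197), from 1016, 267 and 554 counts. Replicates 2 and 3 of the PD-L1 3'UTR lay below all 6 other libraries, whereas replicate 1 lay among them, so the groups overlapped. By its mean share of the input libraries, miR-192-5p ranked 79 among all mature names.

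miR-194-5p, the partner of both seed homologues in their clusters, was about an order of magnitude less abundant. The input libraries held 63.9, 72.7 and 83.3 CPM (73.3 ± 9.71, SD, n = 3), from 243, 216 and 370 counts. In the MS2 control it stood at 35.5, 43.96 and 40.1 CPM (39.8 ± 4.23), from 55, 111 and 53 counts. PD-L1 3'UTR replicates held 86.3, 64.3 and 68.8 CPM (73.1 ± 11.6), from 122, 48 and 95 counts. All 3 PD-L1 3'UTR libraries and all 3 input libraries lay above all 3 MS2 control libraries, and the PD-L1 3'UTR and input ranges overlapped. Its rank in the input was 170.

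miR-215-5p was the least abundant member. The input held 13.4, 22.2 and 23.4 CPM (19.7 ± 5.47, SD, n = 3), from 51, 66 and 104 counts. MS2 control libraries held 18.1, 13.9 and 14.4 CPM (15.4 ± 2.31), from 28, 35 and 19 counts. The PD-L1 3'UTR libraries held 73, 1 and 6 counts, or 51.6, 1.34 and 4.35 CPM (19.1 ± 28.2). The highest and the lowest level of miR-215-5p in the 9 libraries were thus both in this group, 38.5-fold apart, with replicate 1 above and replicates 2 and 3 below all input and MS2 control libraries. The count of 1 in replicate 2 lies below the floor of 3 counts, worth 4.02 CPM in that library.

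**Figure D1:**
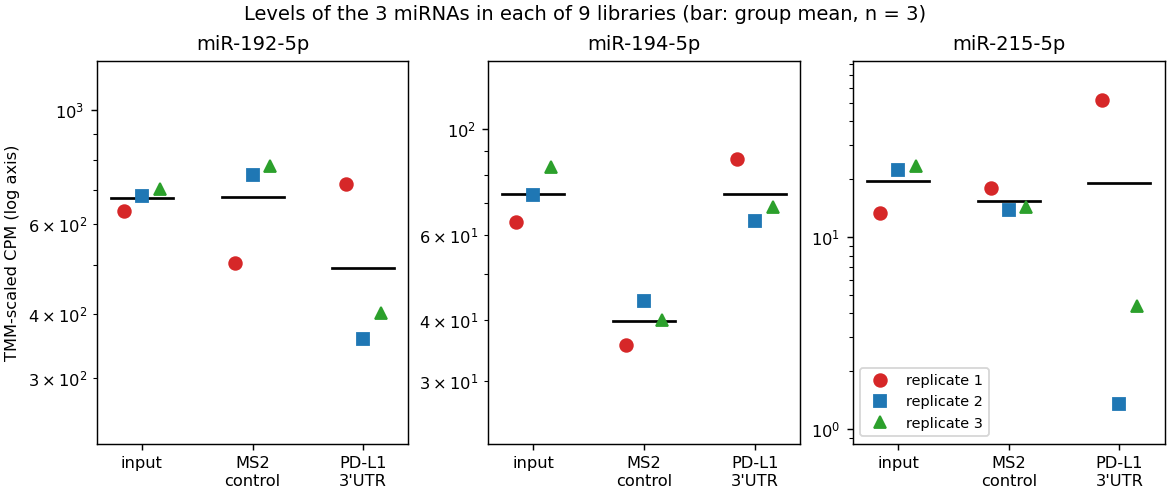
TMM-scaled CPM (log axis, different range in each panel) of miR-192-5p, miR-194-5p and miR-215-5p in each of 9 libraries, with symbols for replicates 1 to 3 and a bar at the group mean. The 3 MS2 control libraries are the lowest for miR-194-5p, at 35.5 to 43.96 CPM, and PD-L1 3'UTR replicate 1 (red circle) lies above replicates 2 and 3 for all 3 miRNAs.

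The order of the members, miR-192-5p above miR-194-5p above miR-215-5p, was the same in each of the 9 libraries. Within groups, miR-194-5p varied least after trapping, with a coefficient of variation of 10.6% in the MS2 control and 15.8% after trapping on the PD-L1 3'UTR, where the medians of all 408 miRNAs tested were 22.3% and 22.6%. miR-192-5p had 40.0% and miR-215-5p had 148% in the PD-L1 3'UTR group. The fold of PD-L1 3'UTR replicate 1 over the mean of replicates 2 and 3 was 1.30 for miR-194-5p, 1.89 for miR-192-5p and 18.1 for miR-215-5p, against a median of 0.997 over all miRNAs tested. Only 10 of the 408 had a larger fold than miR-215-5p, while 46 exceeded miR-192-5p and 113 exceeded miR-194-5p. The summed level of the tissue markers was also highest in that library, and the part of these markers in the levels of the 3 miRNAs was not tested.

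**Figure D2:**
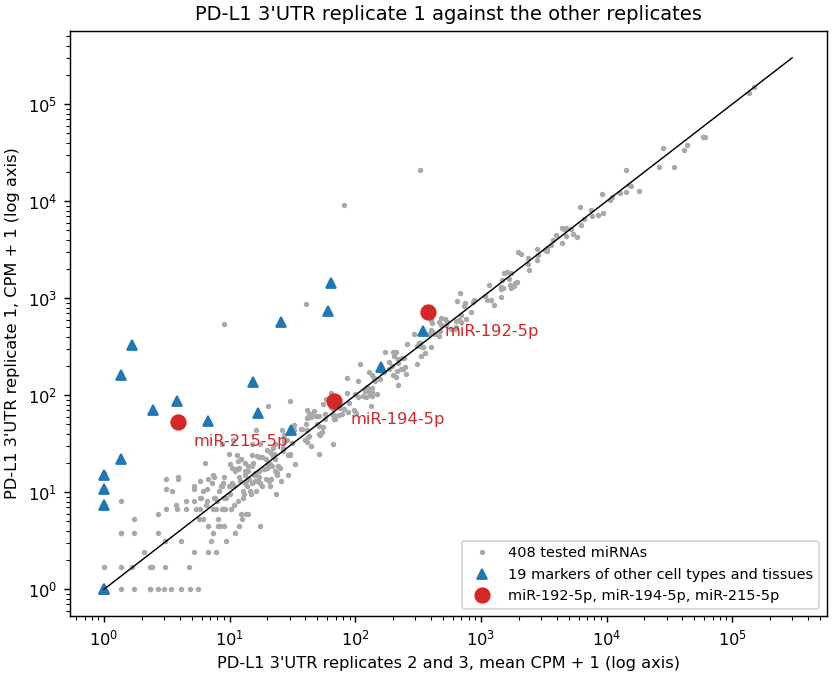
Level in PD-L1 3'UTR replicate 1 against the mean of PD-L1 3'UTR replicates 2 and 3 (CPM + 1, both axes log), for 408 tested miRNAs (grey), 19 markers of other cell types and tissues whether tested or not (blue triangles) and the 3 miRNAs (red circles). The line marks equal levels. miR-215-5p lies among the raised markers, 18.1-fold above the mean of the other replicates, miR-192-5p lies 1.89-fold above and miR-194-5p 1.30-fold above.

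Set against the MS2 control, the PD-L1 3'UTR libraries show which members this bait held beyond the control bait, with bait sequence and amount both differing. miR-194-5p rose 1.84-fold, by 0.88 ± 0.22 in log2 (SE, n = 3 against 3 libraries, adjusted p of 0.00572 by edgeR). All 3 libraries exceeded every MS2 control library, as was so for 32.6% of all miRNAs tested, while 33.1% lay below without overlap (65.7% in either direction). miR-192-5p had -0.46 ± 0.26 (adjusted p of 0.159, 95% interval from -1.04 to 0.13) and miR-215-5p had 0.39 ± 0.84 (adjusted p of 0.711, interval from -1.48 to 2.26). Thus 1 of 3 members was called, when 60.0% of the 408 miRNAs were called in this comparison, 31.4% as higher and 28.7% as lower.

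Without PD-L1 3'UTR replicate 1, all 3 members passed the threshold, and not in 1 direction. miR-194-5p was higher by 0.77 ± 0.25 (adjusted p of 0.0212). In log2, miR-192-5p fell by 0.80 with an SE of 0.20 (adjusted p of 0.00484), and miR-215-5p fell by 2.23 with an SE of 0.59 (adjusted p of 0.00630), the latter on counts of 1 and 6. In that fit 53.7% of the 469 miRNAs tested were called, 25.2% as higher and 28.6% as lower. Library totals in place of TMM factors kept each of these directions, at 0.67, -0.89 and -2.34 for miR-194-5p, miR-192-5p and miR-215-5p without that library. With all libraries they called miR-194-5p alone, as higher (0.82, adjusted p of 0.00759), among 59.3% of all miRNAs, 29.9% higher and 29.4% lower. The miR-194-5p call was lost when miRNAs were tested without a filter on low counts (0.87, adjusted p of 0.0547), and its adjusted p ran from 0.00197 to that value over all alternatives.

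Against the input, 0 of the 3 members were called with the PD-L1 3'UTR by edgeR, 0 at an unadjusted p under 0.05 and 0 by DESeq2, when 66.4% of all miRNAs were called by edgeR, 34.1% as higher and 32.4% as lower. The ranges of all 3 members overlapped, while 74.8% of all miRNAs did not overlap, 37.3% higher and 37.5% lower. The log2 fold change was -0.45 ± 0.26 for miR-192-5p (adjusted p of 0.154, interval from -1.03 to 0.14), 0.00086 ± 0.22 for miR-194-5p (adjusted p of 0.997, interval from -0.48 to 0.48) and 0.034 ± 0.81 for miR-215-5p (adjusted p of 0.970, interval from -1.76 to 1.83). Without PD-L1 3'UTR replicate 1, miR-215-5p fell by 2.67 (SE 0.57, adjusted p of 0.00166) and miR-192-5p by 0.88 (SE 0.20, adjusted p of 0.00259), while miR-194-5p had -0.19 ± 0.25 (adjusted p of 0.516). Of the 469 miRNAs tested there, 59.1% were called, 27.5% as higher and 31.6% as lower.

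These values against the input depended on the scaling. Library totals shifted the median of all miRNAs up by 0.57 in log2, with 68.1% of the calls higher against 51.3% with TMM and 69.1% of the miRNAs called, 47.1% as higher and 22.1% as lower. On that scale miR-194-5p passed the threshold as higher with the PD-L1 3'UTR than in the input, by 0.57 ± 0.22 (adjusted p of 0.0352), which equals the shift of the median. miR-192-5p then had 0.12 with all libraries and -0.27 without PD-L1 3'UTR replicate 1 (adjusted p of 0.683 and 0.215). miR-215-5p without that library was lower on both scales, at -2.67 with TMM and -2.06 with library totals (adjusted p of 0.0101).

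What a bait without the 3'UTR held is read from the MS2 control against the input. miR-194-5p was lower in the MS2 control, by a log2 fold change of -0.88 ± 0.22 (adjusted p of 0.00447), and lower in 3 of 3 MS2 control libraries than in any input library. Lower values without overlap were found for 39.7% and higher ones for 35.8% of all miRNAs tested (75.5% in either direction). miR-192-5p had 0.0079 ± 0.26 (adjusted p of 0.979, interval from -0.57 to 0.59) and miR-215-5p had -0.35 ± 0.81 (adjusted p of 0.70). Here too 1 of 3 members was called, against 69.9% of all miRNAs, with 32.8% higher and 37.0% lower. Without PD-L1 3'UTR replicate 1 in the shared fit, miR-194-5p alone was again called (-0.96, adjusted p of 0.00203), among 67.4%, 31.1% higher and 36.2% lower. With library totals, which raised the median of all miRNAs by 0.63 and made 65.7% of the calls higher against 47.0%, miR-194-5p had -0.25 (adjusted p of 0.304) and miR-192-5p was higher by 0.63 (adjusted p of 0.0473), among 74.3% called, 48.8% higher and 25.5% lower. The PD-L1 3'UTR comparisons and this one share their libraries, so they are not independent of each other.

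**Figure D3:**
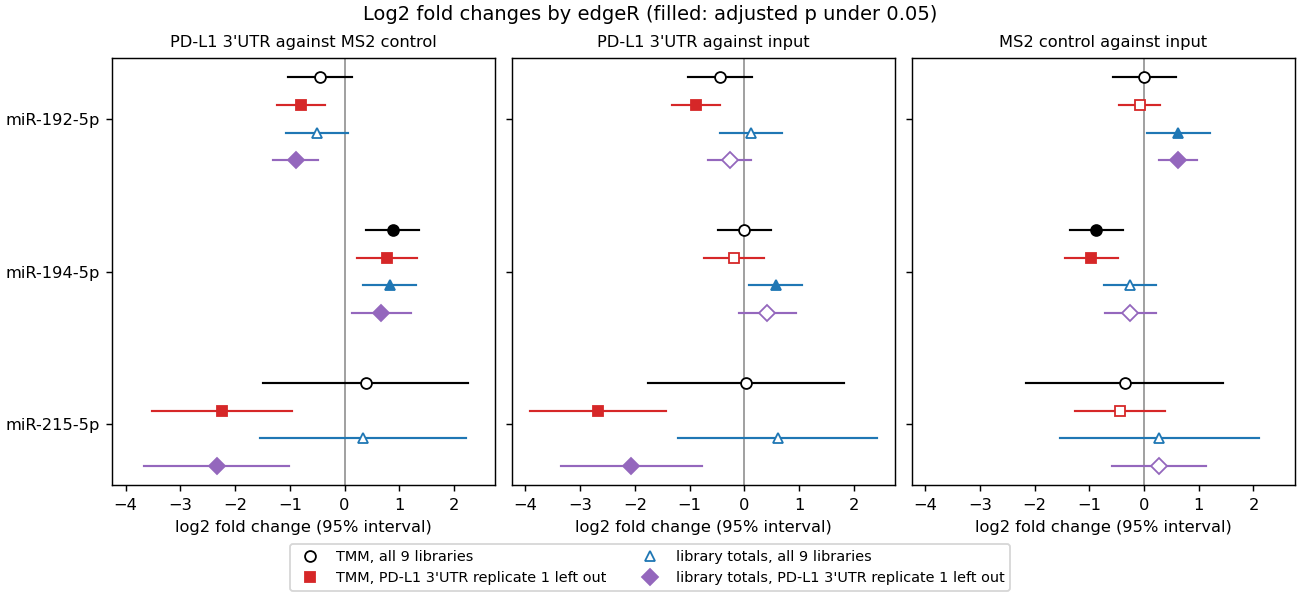
Log2 fold changes (x axis) with 95% intervals of the 3 miRNAs in the 3 comparisons, by edgeR with TMM factors or library totals and with or without PD-L1 3'UTR replicate 1. A filled symbol marks an adjusted p under 0.05. miR-194-5p is higher with the PD-L1 3'UTR than in the MS2 control in each of the 4 fits, from 0.67 to 0.88, and miR-215-5p changes from 0.39 to -2.23 when PD-L1 3'UTR replicate 1 is left out.

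The ratio of miR-194-5p to miR-192-5p within a library does not depend on the scaling between libraries. miR-194-5p counts were 10.03%, 10.7% and 11.9% of miR-192-5p counts in input replicates 1, 2 and 3. In the MS2 control they were 7.04%, 5.89% and 5.14%. With the PD-L1 3'UTR they were 12.0%, 17.98% and 17.1%. The 3 groups did not overlap, with the MS2 control lowest and the PD-L1 3'UTR highest. PD-L1 3'UTR replicate 1 (12.0%) lay barely above input replicate 3 (11.9%). Levels of single miRNAs did not overlap for 65.7% to 75.5% of those tested in the 3 comparisons, and the share for ratios of other pairs was not counted. On the log2 scale (counts + 0.5), the mean ratio of the PD-L1 3'UTR libraries exceeded that of the MS2 control by 1.37 and that of the input by 0.52, and the MS2 control lay 0.85 below the input (difference of -0.85). Each of the 3 differences had an exact permutation p of 0.1 (two-sided, n = 3 against 3, also 0.1 when adjusted over the 3), the smallest that this design allows, so none can pass the threshold.

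miR-215-5p relative to its homologue miR-192-5p showed another pattern. Its counts were 2.11%, 3.26% and 3.33% of miR-192-5p in the input and 3.59%, 1.86% and 1.84% in the MS2 control. In PD-L1 3'UTR replicates 1, 2 and 3 they were 7.19%, 0.375% and 1.08%. The highest and the lowest ratio were again in the PD-L1 3'UTR group, with replicate 1 highest and replicate 2 lowest.

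The copies of miR-194-5p give the same mature sequence, and their hairpins differ in the bases next to it. The stretches show the mature miRNA in lower case, and the 3 bases on each side in capitals.

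MIR194-1, chromosome 1: AAGuguaacagcaacuccauguggaCUG

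MIR194-2, chromosome 11: CCCuguaacagcaacuccauguggaAGU

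More counts were assigned to the chromosome 11 copy in all 9 libraries. It held 63.0%, 61.1% and 64.3% of miR-194-5p counts in the input, where 829 counts were available in all. Shares were 76.4%, 62.2% and 60.4% in the MS2 control. PD-L1 3'UTR libraries had 59.0%, 64.6% and 82.1%. The 95% exact binomial interval ran from 72.9% to 89.2% for PD-L1 3'UTR replicate 3. It reached below an equal division in MS2 control replicate 3 (46.0% to 73.5%) and in PD-L1 3'UTR replicates 1 and 2 (from 49.7% and 49.5% up). These intervals cover counting error only. Over all libraries the share was 64.5%. Of 34 names with 2 loci and at least 100 counts, 30 held at most 55% at the larger locus, with a median of 51.6%, and 1 had a larger share than miR-194-5p. The chromosome 11 copy is followed by A and the chromosome 1 copy by C, and how reads were divided between the copies was not tested.

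**Figure D4:**
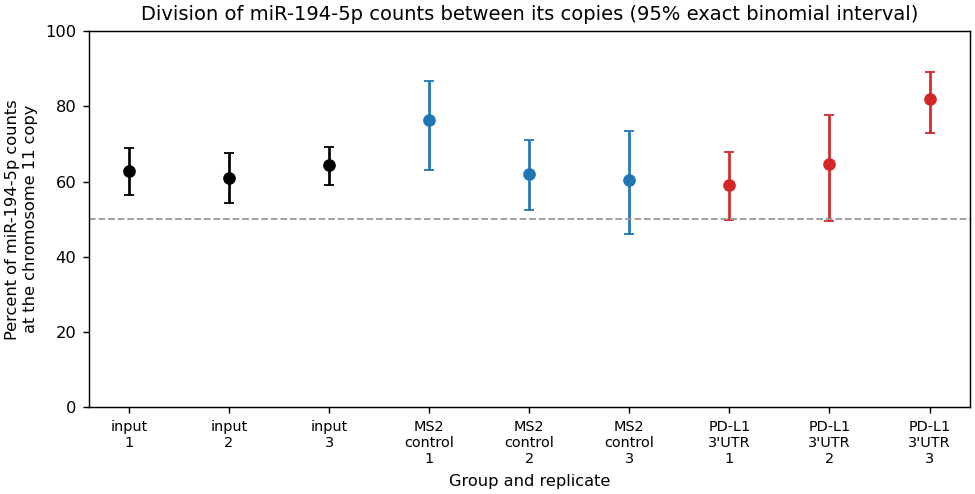
Percent of miR-194-5p counts assigned to the chromosome 11 copy (y axis) in each library (x axis: group and replicate; black for input, blue for MS2 control, red for PD-L1 3'UTR), with 95% exact binomial intervals that cover counting error only. The dashed line marks an equal division. All 9 shares lie above it, from 59.0% to 82.1%.

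Partner arms of the hairpins were scarce. miR-192-3p had 1 count and miR-215-3p had 5 counts in all 9 libraries together, and neither was tested. miR-194-3p, which comes from the chromosome 11 hairpin alone, held 21, 33 and 57 counts in the input. MS2 control libraries held 0, 20 and 1 counts, and PD-L1 3'UTR libraries held 1, 2 and 0. It was called lower with the PD-L1 3'UTR than in the input (log2 fold change of -3.40, adjusted p of 0.0316), at least 3.54-fold when 3 counts are taken as the floor in every trapped library of that group, from 9.82 ± 3.82 CPM (SD, n = 3) in the input. The threshold was missed at a similar value without PD-L1 3'UTR replicate 1 (-3.28, adjusted p of 0.0687) and with library totals (-2.85, adjusted p of 0.0634). The neighbouring MIR6750 gave 1 count for miR-6750-5p and 7 for miR-6750-3p.

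Seed matches in the bait's 3'UTR were sought as a description. PD-L1 is encoded by CD274, whose longest 3'UTR in the GENCODE annotation of GRCh37 is that of CD274-201, within exon 6 (chr9:5467863-5470566, forward strand, 2704 bases). How much of it the bait held was not analysed here. The sense strand was searched for TAGGTCA (7mer-m8), AGGTCAA (7mer-A1) and TAGGTCAA (8mer) of miR-192-5p and miR-215-5p, and for CTGTTAC (7mer-m8), TGTTACA (7mer-A1) and CTGTTACA (8mer) of miR-194-5p. An 8mer contains both 7mers and was counted once. The miR-192-5p and miR-215-5p seed had no match of 7 bases, and none of its 6mer AGGTCA. miR-194-5p had 1 7mer-A1 at chr9:5468401-5468407, shown here with 8 bases on each side and the match in capitals.

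CD274 3'UTR, position 539 from its start: gtagtagaTGTTACAattttgtc

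A 6mer of miR-194-5p, TGTTAC, lies at chr9:5470481-5470486 without the flanking bases that would make it longer. As background, the leading 2704 bases of 4504 other 3'UTRs at least that long held a match of 7 or more bases to the miR-194-5p seed in 30% and to the seed of miR-192-5p and miR-215-5p in 21%. A match of these letters describes the sequence and is not a measured site.

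Other p53-responsive miRNAs were read from a list of 17 names. Of these, 7 were tested, 4 had 0 counts in every library and 6 had counts but did not pass the filter. The miR-34 family, the best known p53-induced miRNAs, was nearly absent outside PD-L1 3'UTR replicate 1. miR-34a-5p had at most 8 counts in a library, and miR-34c-5p held 702 counts in PD-L1 3'UTR replicate 1 and at most 9 in any other. miR-145-5p, a p53-responsive miRNA of smooth muscle, likewise held 295 counts in that library and at most 10 elsewhere.

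Over the MS2 control, 4 of the 7 were higher and 0 were lower by edgeR, where 31.4% of all miRNAs were higher and 28.7% lower, and the median log2 fold change was 1.16 against 0.017 for all miRNAs. At an unadjusted p under 0.05, 4 were higher and 1 lower, and by DESeq2 3 were higher and 0 lower. miR-15a-5p and miR-16-5p, which target cell cycle and survival genes such as CCND1 and BCL2, rose by 4.34 ± 0.47 (SE, adjusted p of 1.56e-05) and 3.05 ± 0.22 (adjusted p of 7.14e-07). miR-107 rose by 1.16 ± 0.21 (adjusted p of 0.000678). miR-143-3p, co-transcribed with miR-145, was called at 5.55 ± 1.63 (adjusted p of 0.0125) with all libraries and had 0.29 (adjusted p of 0.590) without PD-L1 3'UTR replicate 1, the library in which most tissue markers were highest. Without it, 3 were higher and 1, miR-22-3p, was lower by a log2 value of -0.50 (adjusted p of 0.0314), against 25.2% and 28.6% of all miRNAs.

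Against the input, 3 of the 7 were higher and 3 lower with the PD-L1 3'UTR by edgeR, where 34.1% and 32.4% of all miRNAs were. DESeq2 called 2 higher and 3 lower. In the MS2 control, 0 were higher and 4 lower by edgeR, against 32.8% and 37.0% of all miRNAs, with the same counts by DESeq2 and at an unadjusted p under 0.05. miR-107 and miR-1246 were lower than in the input in both trapped groups, at -2.02 and -2.96 with the PD-L1 3'UTR and at -3.18 and -1.83 in the MS2 control, and they were called lower with library totals too. On that scale miR-22-3p was no longer called with the PD-L1 3'UTR (-0.11, adjusted p of 0.652), and miR-200c-3p, an epithelial miRNA, was higher in the MS2 control (0.78, adjusted p of 0.0241). Without PD-L1 3'UTR replicate 1 in the fit, the MS2 control had 1 of the 7 higher and 5 lower than the input, against 31.1% and 36.2% of all miRNAs. miR-194-5p resembled miR-107, miR-15a-5p and miR-16-5p in being lower in the MS2 control than the input and higher with the PD-L1 3'UTR than in the MS2 control, on the TMM scale. Its changes were the smallest of these 4 miRNAs in each of these comparisons. With the PD-L1 3'UTR against the input the 4 differed. miR-107 was lower (-2.02), miR-15a-5p and miR-16-5p were called higher (2.24 and 0.57), and miR-194-5p had 0.00086 (adjusted p of 0.997 by edgeR). Of all miRNAs, 37.0% were lower in the MS2 control than the input and 31.4% higher with the PD-L1 3'UTR than in the MS2 control. Both calls rest on the same MS2 control libraries, so they are not independent of each other. The share of all miRNAs with both calls was not counted, so whether this likeness is particular to these 4 was not tested.

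**Figure D5:**
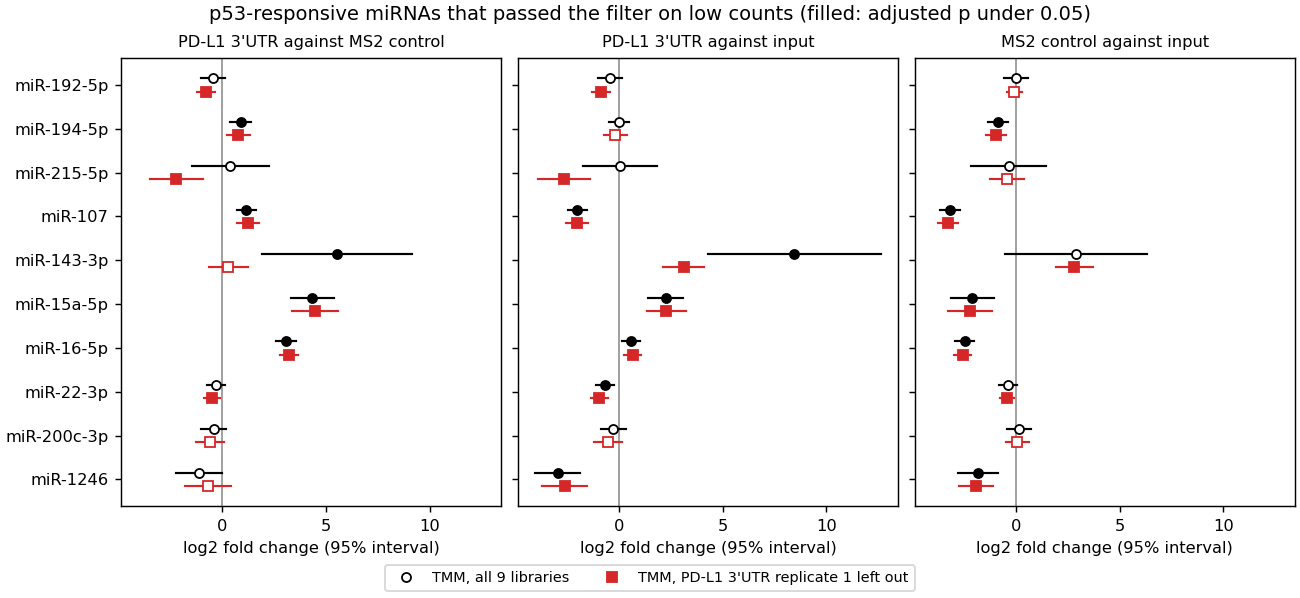
Log2 fold changes (x axis) with 95% intervals by edgeR for miR-192-5p, miR-194-5p, miR-215-5p and the 7 tested miRNAs of the p53-responsive list, with all libraries (black) and without PD-L1 3'UTR replicate 1 (red). A filled symbol marks an adjusted p under 0.05. miR-15a-5p and miR-16-5p stay called as higher over the MS2 control without that library, whereas miR-143-3p moves from 5.55 to 0.29 over the MS2 control and miR-215-5p from 0.39 to -2.23.

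The miRNAs with the most similar course over the 9 libraries were taken by the smallest root mean square difference of centred log2 CPM among the 408 tested. For miR-194-5p these were miR-199a-3p (0.18), miR-582-3p (0.19) and miR-199b-3p (0.20), against a median of 1.06 over all. Each of them was called in the same directions as miR-194-5p, lower in the MS2 control against the input and higher with the PD-L1 3'UTR against the MS2 control. As they were chosen by likeness over these same libraries, the shared calls are not a separate result. For miR-192-5p they were miR-32-5p (0.24), miR-301a-5p (0.26) and miR-27a-3p (0.29), against a median of 1.03. No tested miRNA was that close to miR-215-5p, whose nearest were miR-7977 (0.71), miR-1843 (0.73) and miR-132-3p (0.73), against a median of 1.54. The libraries are shared by all of these values, and the likeness describes these 9 libraries only.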

How the data were processed

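The 9 single-end small RNA libraries of ES-2 were grouped and numbered by their titles. The deposited table holds raw counts of reads per mature miRNA locus. Before deposit, the authors removed adapters, mapped reads to the human genome and counted them over miRBase mature miRNAs. The submitters' processing notes name cutadapt 1.18, Bowtie2 2.2.6, featureCounts 1.6.3 and the build hg38. The treatment of reads with several alignments is not given in the sources used here.

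Counts of loci with 1 name were summed. edgeR 4.0.16 in R 4.3.3 was used with TMM factors (0.743 to 1.25), filterByExpr by group, which kept 408 miRNAs, and a quasi-likelihood model of 3 group means over all 9 libraries. Tests were two-sided, with Benjamini-Hochberg adjustment over all miRNAs tested and a threshold of 0.05. The SE is the size of the log2 fold change over the square root of F. The procedure was tested on simulated counts with the same spread for every miRNA and no library set apart. That test does not cover a library such as PD-L1 3'UTR replicate 1. TMM factors centre the bulk of miRNAs on no change, so values with library totals are given for the members where they alter a call or direction. A floor of 3 counts was worth 0.675 to 4.02 CPM, and floors and intervals on counts cover counting error only. A fit that leaves out a library applies the filter anew.

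The members and the lists (p53-responsive miRNAs, partner arms, markers of other cell types) were chosen with earlier results of these data known. The text names the members, the listed miRNAs that passed the filter and the 3 nearest miRNAs of each member. Other listed miRNAs (miR-34a-5p, miR-34c-5p, miR-145-5p and single markers) were named after their values were seen. No miRNA-based marker list defines ES-2 cells, so the cell type was not checked from these data. All replicate pairs differed beyond sampling noise. Alternatives were DESeq2 1.42.0 and its size factors, library totals, other filters, only the groups compared, the replicate number as a block, separate loci, miR-192-5p and miR-215-5p summed, and leaving out each library. Library totals with PD-L1 3'UTR replicate 1 left out were added after seeing the data.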

Additional observations from a re-analysis of the deposited data

How the results depend on the processing

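The rise of miR-194-5p over the MS2 control kept its direction under all 18 alternatives and its call under 17, with log2 fold changes from 0.75 to 0.93 when 1 library was left out. Without a filter on low counts it had 0.87 (adjusted p of 0.0547). Its fall in the MS2 control against the input was from -1.07 to -0.86 when 1 library was left out, and not called with library totals, at -0.25 with or without PD-L1 3'UTR replicate 1. Against the input with the PD-L1 3'UTR it stood near 0 and changed sign, from -0.23 to -0.010 when 1 library was left out, with -0.26 without a filter, -0.059 with a mean of at least 10 CPM and -0.098 with only the groups compared, and with a called 0.57 by library totals.

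miR-192-5p over the MS2 control ranged from -0.80 to -0.30 when 1 library was left out. It was called at -0.80 without PD-L1 3'UTR replicate 1, at -0.60 with a mean of at least 10 CPM and at -0.89 by library totals without that library. With the PD-L1 3'UTR against the input it ranged from -0.88 to -0.39 when 1 library was left out, called at the former without PD-L1 3'UTR replicate 1, and had -0.72 without a filter (called) and 0.12 by library totals. In the MS2 control against the input, it ranged from -0.26 to 0.085 when 1 library was left out, and had -0.25 without a filter, -0.025 with only the groups compared, -0.0010 with miR-215-5p summed and 0.63 by library totals (called, with or without PD-L1 3'UTR replicate 1).

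miR-215-5p over the MS2 control ranged from -2.23 to 0.83 when 1 library was left out, the former without PD-L1 3'UTR replicate 1, and had -2.34 by library totals without it. Against the input with the PD-L1 3'UTR it ranged from -2.67 to 0.40, with -0.014 by DESeq2, -0.28 without a filter, -0.13 with a mean of at least 10 CPM, -0.055 with only the groups compared, -0.060 with each locus as its own row and -2.06 by library totals without PD-L1 3'UTR replicate 1. In the MS2 control against the input it ranged from -0.68 to -0.23, with 0.28 by library totals with or without that library.

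No pairing by replicate number was seen, though 3 libraries per group cannot exclude it. Correlations of deviations from group means ran from -0.18 to 0.13 between same-numbered libraries, and 1 of 9 exceeded 0.1. Between differently numbered libraries they ran from -0.12 to 0.19, and 4 of 18 exceeded 0.1. With the number as a replicate block, miR-215-5p had -0.088 over the MS2 control and -0.59 against the input, uncalled as before, and no call of a member changed. The number of miRNAs called in each comparison stayed within 1.5 times, from 220 to 323 over the MS2 control. The ratio of miR-194-5p to miR-192-5p kept its direction throughout. With 6mers, miR-194-5p had 2 matches in the 3'UTR. Causes of these changes were not tested. At 1 and 6 counts, the fall of miR-215-5p has little precision.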
